A study of Mus musculus with 12 samples.

Results

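Bdnf, Ntf3, Ngfr, Ntrk2, Ntrk3 and Gdnf were followed in the striatum of mice with a unilateral loss of dopamine neurons that received L-DOPA once or repeatedly. These 6 genes were taken by their symbols and matched 49 transcript rows of 189660 rows in the expression table, which names 52169 gene symbols. Bdnf had 12 rows, Ntrk2 14, Ntrk3 13, Ntf3 4, Ngfr 4 and Gdnf 2. Each gene is described by its top transcript, which is the row with the highest mean count over the 12 libraries, and Bdnf and Ntrk2 are also described row by row.

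Neurotrophins are secreted growth factors that bind Trk receptor tyrosine kinases and, with a different affinity for mature and precursor forms, the p75 neurotrophin receptor encoded by Ngfr. Bdnf encodes brain-derived neurotrophic factor and Ntrk2 its receptor TrkB, while Ntf3 encodes neurotrophin-3 and Ntrk3 its receptor TrkC. In the striatum most BDNF protein is delivered by axons from the cortex, whereas TrkB is made by striatal neurons and, mainly as a truncated form without a kinase, by astrocytes. Gdnf belongs to another ligand family, whose signal passes through GFRalpha coreceptors and the kinase Ret, and is known for its trophic action on dopamine neurons.

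C57BL/6J mice were injected with the toxin 6-OHDA on the right side, in the medial forebrain bundle, which removes the dopamine input to the striatum of that side. All animals received L-DOPA at 10 mg/kg with benserazide, a blocker of its conversion outside the brain, at 7.5 mg/kg. The drugs were given once (acute) or on 9 consecutive days (chronic), and the tissue was taken 1 hour after the last dose. Striatal punches of the lesioned and the unlesioned side gave 4 groups of 3 libraries, so that the unlesioned groups had also received L-DOPA and no group was free of drug. The study describes the unlesioned side as each mouse's own control, but the labels count 12 mice for the 12 libraries.

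The libraries held 87695043 to 173116525 counts over all transcripts, in which a read counts once for every transcript it overlaps. Over the top transcripts alone there were 18373807 to 36492574 counts. All 12 markers of medium spiny neurons were detected, with a summed level of 2128 to 2862 CPM (counts scaled to a common library total). Markers of choroid plexus stood apart in the second chronic unlesioned library, where the 8 genes summed to 489.8 CPM against 3.88 to 11.8 CPM in the others. Markers of cortical glutamatergic neurons also varied between libraries of a group, and their values are given beside Bdnf below. Striatal punches are bulk tissue, so fewer cells of a type and less RNA per cell cannot be told apart.

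Levels can be compared between genes only per length, as CPM per kilobase of the top transcript. On that scale Ntrk2 was the most abundant member, at 12.0 over the 12 libraries, followed by Ntrk3 at 3.17. Ngfr and Gdnf were at 0.392 and 0.358 and did not differ beyond their spread, since their libraries overlapped in all 4 groups, and in the chronic unlesioned group Ngfr was at 0.559 ± 0.529 and Gdnf at 0.420 ± 0.0537 (SD, n = 3). Bdnf was at 0.0613 and Ntf3 at 0.0110, and their libraries overlapped in both lesioned groups, with 0.0219 ± 0.0144 and 0.0121 ± 0.0142 (SD, n = 3) in the acute one. They did not overlap in the unlesioned groups, with Bdnf at 0.0853 ± 0.0598 and Ntf3 at 0.00186 ± 0.0032 after acute and 0.0922 ± 0.0681 and 0.0139 ± 0.00718 after chronic L-DOPA (SD, n = 3). Ntrk2 and Ntrk3 were thus far above the ligands in this tissue, by top transcripts that end without the kinase exons. A row of Ntrk2 kinase exons was at 5.859 and the full-length Ntrk3 row NM_008746, which also holds shared exons, at 2.065.

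**Figure D1:**
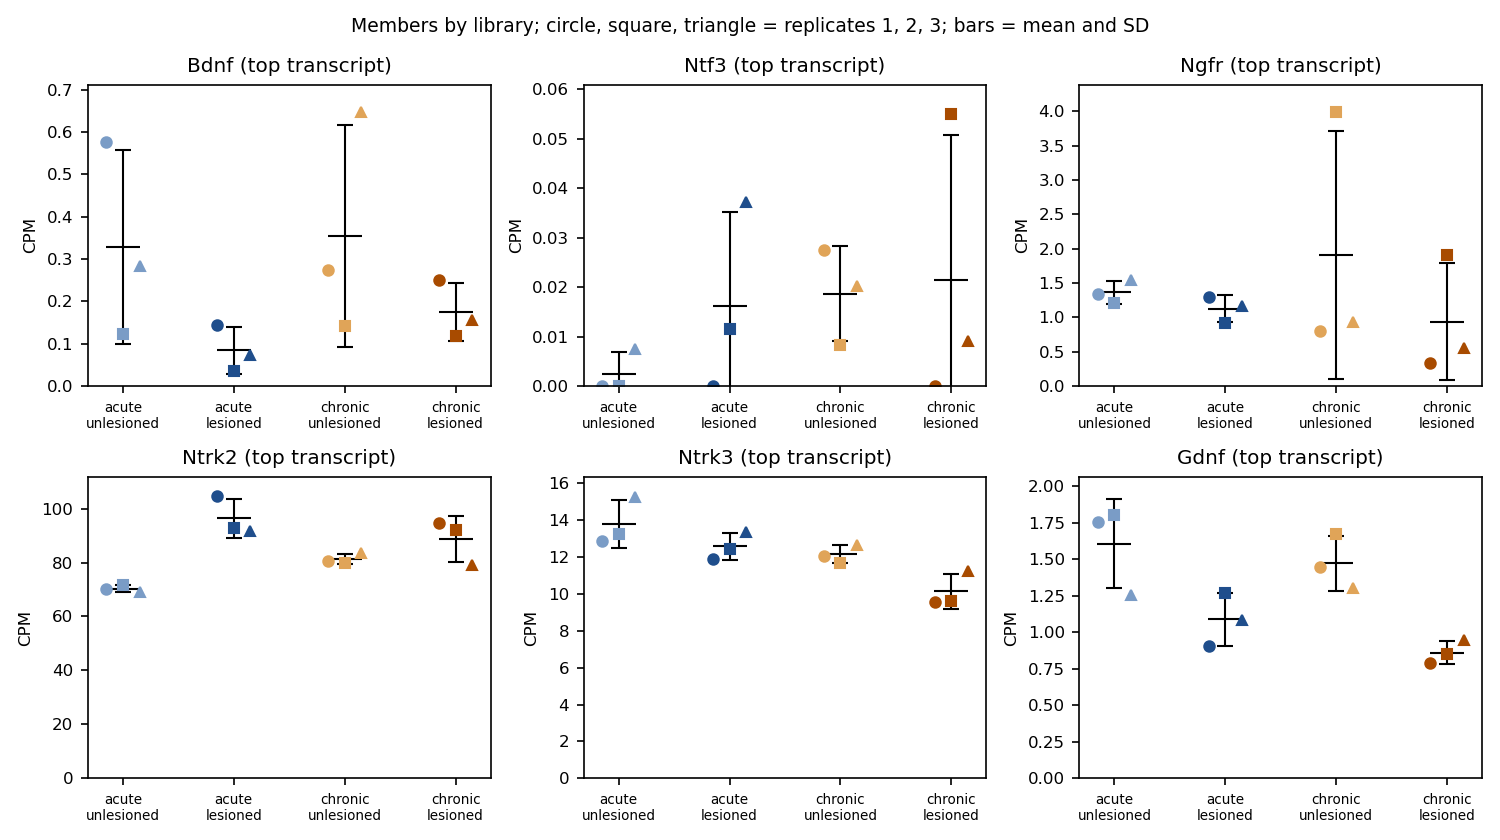
Level of the top transcript of each member, in CPM on a linear axis starting at 0, in each of the 12 libraries. Points are libraries and bars the mean and SD of 3 libraries, cut at 0 where they reach below it. Ntrk2 lies at 68.9 to 71.5 CPM in the acute unlesioned group and above 91 CPM in the acute lesioned group, and Ngfr has its highest values in the second library of both chronic groups.

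The comparisons of groups and the difference between both lesion effects were tested with edgeR across all transcripts, and a change was called at a Benjamini-Hochberg adjusted p under 0.05. By top transcript, 5 of the 6 members passed the filter on low counts in each comparison, and Ntf3 did not. After acute L-DOPA 3 of the 5 were called, with Ntrk2 higher and Bdnf and Gdnf lower in the lesioned striatum, where 15.3% of all top transcripts tested were called, 8.16% higher and 7.16% lower. After chronic L-DOPA 1 of the 5 was called, Gdnf, where 13.7% of top transcripts were called, 8.45% higher and 5.20% lower. The acute count fell to 1 or 2 whichever library was left out, and was 1 without the first acute unlesioned or the third acute lesioned library. The chronic count was 2 without the second chronic unlesioned library.

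Between the treatments, Ntrk3 alone of the 5 was called, lower in the chronic than in the acute lesioned striatum. In that comparison 25.6% of top transcripts were called, 12.5% higher and 13.1% lower. The count was 2 without the second chronic lesioned library and 0 without the second or the third acute lesioned or the first chronic lesioned library. In the unlesioned striatum edgeR called 0 of the 5, with 2 at an unadjusted p under 0.05 and 1 called by DESeq2, and 3.07% of top transcripts were called, 1.07% higher and 1.99% lower (2 of the 5 without the second chronic unlesioned library). For the difference between the chronic and the acute lesion effect edgeR also called 0 of the 5, with 1 at an unadjusted p under 0.05 and 1 called by DESeq2, beside 5.10% of top transcripts, 3.53% with a positive and 1.56% with a negative difference. With the replicate number as a block 2 of the 5 were called for this difference.

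TrkB exists as a full-length receptor with an intracellular kinase and as truncated receptors that keep the ligand-binding part. The point where the forms part can be read from the genome. The sequences are shown because 3 of the 14 Ntrk2 rows lie wholly beyond this point, 1 on the T1 branch and 2 on the full-length branch, and the branches carry different patterns. They are coding exons of the plus strand of chromosome 13 in build mm9 (NCBIM37, GENCODE vM1), and the capitals mark the stop codon of the truncated form T1. The last exon that T1 and the full-length forms share is chr13:58979524-58979623, which includes the membrane-spanning part. It is followed in T1 by the short coding stretch chr13:59033384-59033421, and in the full-length form by the exon chr13:59087163-59087351. The first of the exons that the kinase row covers is chr13:59139328-59139458.
shared: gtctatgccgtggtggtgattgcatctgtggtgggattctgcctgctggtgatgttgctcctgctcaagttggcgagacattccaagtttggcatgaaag
T1: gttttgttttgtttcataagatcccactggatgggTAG
full-length: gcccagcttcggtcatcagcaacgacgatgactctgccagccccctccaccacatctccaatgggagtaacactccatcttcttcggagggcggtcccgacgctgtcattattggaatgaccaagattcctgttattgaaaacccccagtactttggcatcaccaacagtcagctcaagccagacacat
kinase: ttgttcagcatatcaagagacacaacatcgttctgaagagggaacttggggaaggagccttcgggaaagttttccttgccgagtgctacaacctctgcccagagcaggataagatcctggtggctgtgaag

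The row AK028310 (chr13:59035483-59038385, 2903 bases) lies wholly in the last exon of T1, downstream of the stop codon printed above. It overlaps 1 of the 5 GENCODE transcripts of Ntrk2. The row ENSCAFT00000002132 (chr13:59139324-59230185, 1355 bases in 5 exons), a dog transcript aligned to the mouse genome, covers exons shared by 3 full-length GENCODE transcripts, with 881 bases of coding sequence in the kinase part and the rest in the untranslated start of the last exon. The row AK021108 (chr13:59234836-59235323, 488 bases) lies at the 3′ end of the same transcripts, further down in that last exon. No base is common to any pair of the 3 rows, so a read that lies within one is not counted in another.

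Reads of the T1 exon were higher on the lesioned than on the unlesioned side after a single L-DOPA dose. The 3 acute unlesioned libraries had 22.2, 23.5 and 21.6 CPM and the acute lesioned ones 34.2, 29.7 and 30.2 CPM. All lesioned libraries were above all unlesioned ones, and the log2 fold change was 0.49 ± 0.07 (SE, n = 3 per group, edgeR adjusted p = 0.00066). After chronic L-DOPA the unlesioned libraries had 28.2, 27.8 and 27.9 CPM and the lesioned ones 30.1, 30.2 and 23.3 CPM. These groups overlapped, and the log2 fold change of -0.0016 ± 0.11 (SE) was not called (adjusted p = 0.994).

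The kinase exons showed the other pattern. They stood at 6.29, 6.83 and 7.49 CPM in the acute unlesioned and at 6.88, 7.71 and 6.37 CPM in the acute lesioned libraries, which overlap (log2 fold change 0.03 ± 0.08, SE, adjusted p = 0.842). After chronic L-DOPA they stood at 6.91, 5.83 and 7.37 CPM on the unlesioned and at 12.8, 10.1 and 10.7 CPM on the lesioned side. Kinase reads were thus 1.67-fold higher in the chronic lesioned striatum (log2 fold change 0.74 ± 0.12, SE, adjusted p = 0.00211), with no overlap between the groups. They were also higher than in the acute lesioned striatum (log2 fold change 0.68 ± 0.10, SE, adjusted p = 0.00131).

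The 3′ end of the full-length form, which has no base in common with the kinase row, moved in the same direction in the chronic groups. AK021108 had 1.79, 1.88 and 2.15 CPM in the chronic unlesioned and 3.38, 2.88 and 3.61 CPM in the chronic lesioned libraries. Its log2 fold change was 0.76 ± 0.12 (SE, adjusted p = 0.0021), again without overlap. In the acute groups it had 2.60, 2.32 and 2.85 CPM unlesioned and 2.74, 2.59 and 3.13 CPM lesioned (log2 fold change 0.14 ± 0.11, SE, adjusted p = 0.438). Its level in the chronic unlesioned libraries was below that in the acute unlesioned ones, without a call (log2 fold change -0.41 ± 0.11, SE, adjusted p = 0.0692). Unlike the kinase exons, it was not called between the lesioned groups, which overlapped (log2 fold change 0.22 ± 0.12, SE, adjusted p = 0.197). The kinase exons did not differ by the test between the unlesioned groups (log2 fold change -0.03 ± 0.10, SE, adjusted p = 0.892).

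The test of the difference between the chronic and the acute lesion effects was passed by these 3 rows and by no other of the 14, where 4.52% of all transcripts tested were called. The difference was 0.71 ± 0.15 on the log2 scale for the kinase exons (SE, adjusted p = 0.0158), 0.63 ± 0.16 for the full-length 3′ end (adjusted p = 0.0376) and -0.49 ± 0.13 for the T1 exon (adjusted p = 0.0454). The call for the T1 exon was lost when any of 10 of the 12 libraries was left out, with adjusted p up to 0.113, and its value stayed between -0.56 and -0.38. The call for the kinase exons was lost only without the third acute unlesioned library (adjusted p = 0.0516), at 0.60 to 0.79 over the 12 omissions. That for the full-length 3′ end was lost for 8 of the 12 libraries, at 0.56 to 0.72 with adjusted p up to 0.102.

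The balance of both forms was computed in each library as the ratio of kinase to T1 reads per kilobase. It was 0.607, 0.623 and 0.743 in the acute unlesioned, 0.431, 0.555 and 0.452 in the acute lesioned, 0.525, 0.449 and 0.565 in the chronic unlesioned, and 0.912, 0.716 and 0.980 in the chronic lesioned libraries. The lesioned side was therefore below the unlesioned side after acute L-DOPA, with means of 0.480 ± 0.0665 and 0.657 ± 0.0742 (SD, n = 3), and above it after chronic L-DOPA, with 0.869 ± 0.137 and 0.513 ± 0.0589. Neither pair of groups overlapped. A two-sided exact permutation test of the log2 ratio gave p = 0.1 for each of the 4 comparisons of groups, which is the smallest p that 3 against 3 libraries allow.

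**Figure D2:**
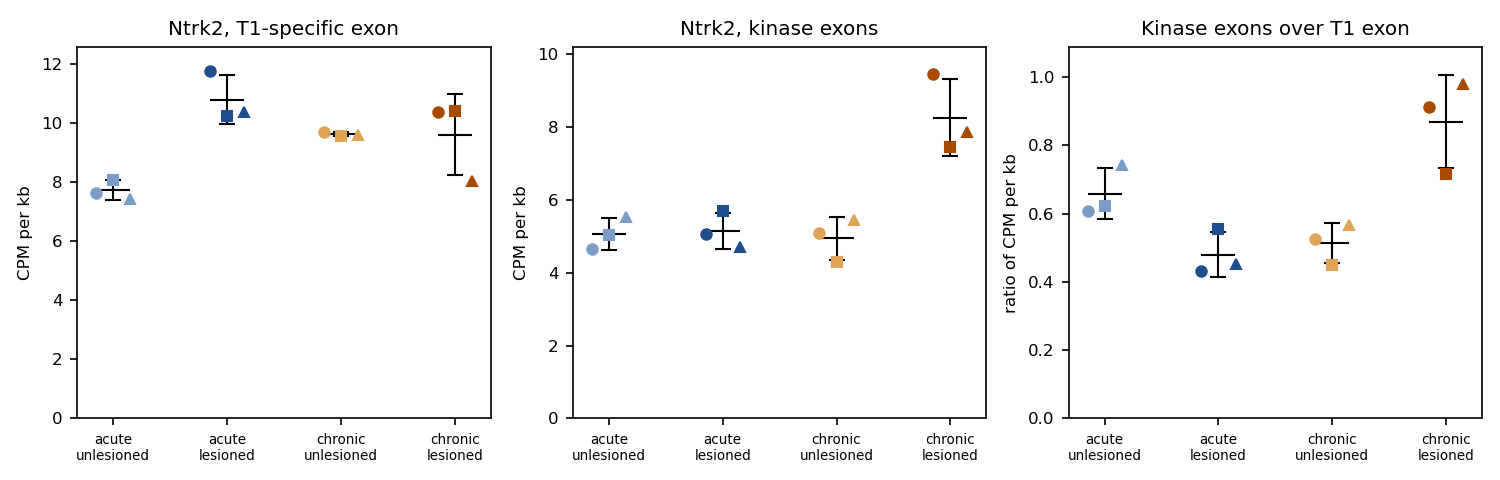
Level of the T1-specific exon and of the kinase exons of Ntrk2 in CPM per kilobase, and their ratio, by library (points) with the mean and SD of 3 libraries (bars) on linear axes from 0. The T1 exon is higher in the acute lesioned than in the acute unlesioned libraries, the kinase exons are highest in the chronic lesioned libraries, and the ratio is 0.716 to 0.980 there against 0.743 or less elsewhere.

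The other Ntrk2 rows contain exons of both forms or of 1 form together with the shared part. Of the 14 rows, 12 were called higher in the acute lesioned striatum, where 12.9% of all transcripts tested were called, and 9 in the chronic lesioned striatum, where 12.0% were. The rows share reads, so these are not independent measurements. The top row NM_008745 (chr13:58907957-59038392, 7003 bases), which ends with T1, had 70.2, 71.5 and 68.9 CPM in the acute unlesioned and 104.7, 92.9 and 91.5 CPM in the acute lesioned libraries (log2 fold change 0.47 ± 0.07, SE, adjusted p = 0.000716). In the chronic groups it had 80.7, 79.8 and 83.5 CPM unlesioned and 94.8, 92.2 and 79.1 CPM lesioned, which overlap (0.13 ± 0.09, adjusted p = 0.412).

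With the replicate number as a block the difference between the lesion effects passed the test for the top row as well, at -0.34 (adjusted p = 0.0341, against 0.095 without the block). The longest full-length row AK147391 (8541 bases) was higher on the lesioned side after acute L-DOPA, by 0.24 ± 0.06 on the log2 scale (SE, adjusted p = 0.0193, lost without the first or second acute unlesioned or the second acute lesioned library, up to 0.0835, and in the joint fit of all libraries, 0.0557), and after chronic L-DOPA, by 0.52 ± 0.09 (adjusted p = 0.00346). It also contains the shared exons upstream of the branch. AK028827, which ends just past the last shared exon, gave 0.44 ± 0.06 (adjusted p = 0.000542) and 0.31 ± 0.08 (adjusted p = 0.0314), the latter lost without any chronic unlesioned or the first chronic lesioned library (adjusted p up to 0.122).

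**Figure D3:**
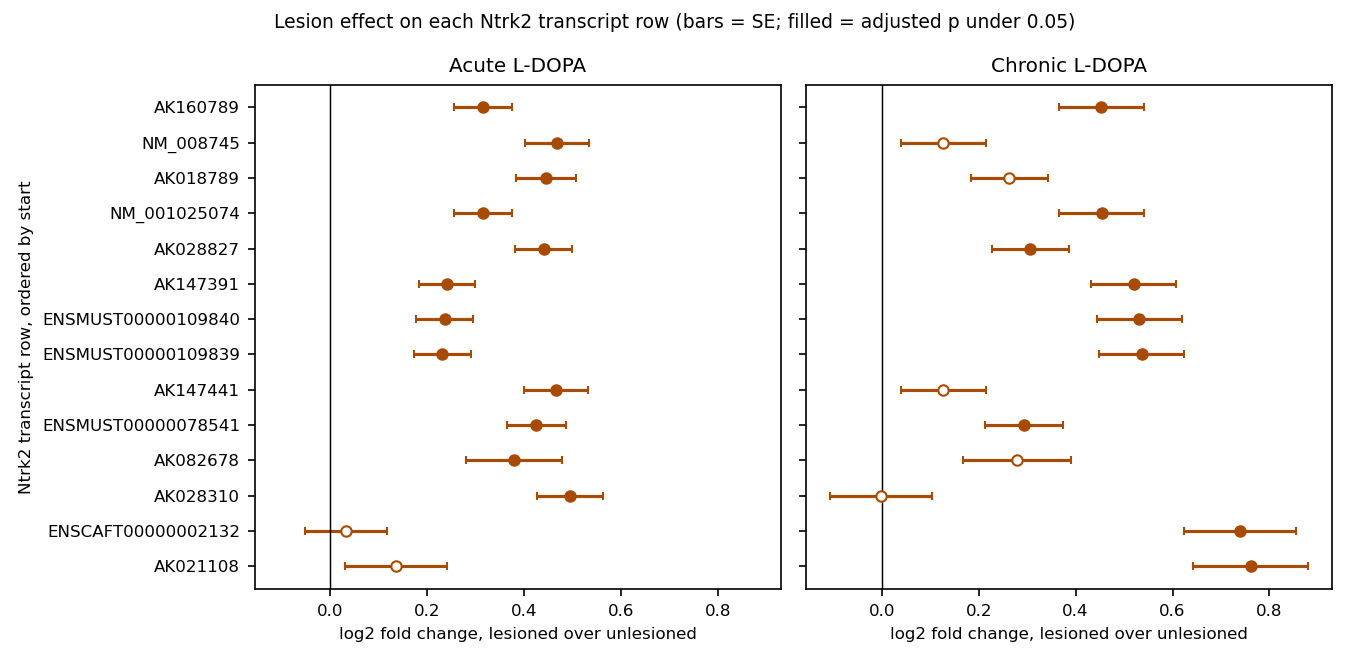
Log2 fold change of the lesioned over the unlesioned striatum for each of the 14 Ntrk2 rows, with its SE, after acute (left) and chronic (right) L-DOPA; filled points have an adjusted p under 0.05. The T1 exon AK028310 is at 0.49 and -0.0016, and the kinase exons ENSCAFT00000002132 at 0.03 and 0.74.

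Between the treatments in the unlesioned striatum, the T1 exon was the only Ntrk2 row called, higher in the chronic than in the acute group by 0.32 ± 0.06 on the log2 scale (SE, adjusted p = 0.0274, with 2.61% of all transcripts called). That call was lost without any of 5 of the 6 libraries, with adjusted p up to 0.13, and in the joint fit of all libraries (0.0727). In the lesioned striatum 4 Ntrk2 rows were called higher in the chronic group, the kinase exons and 3 full-length rows, beside 23.3% of all transcripts, and 1 was without any acute lesioned library or without the first chronic lesioned one. Astrocyte markers moved with the acute result in part. Of 12 such markers 4 were called higher in the acute lesioned striatum and 1 in the chronic lesioned striatum, and their summed level was 712 to 773 CPM in the acute unlesioned, 786 to 986 in the acute lesioned, 693 to 795 in the chronic unlesioned and 812 to 836 CPM in the chronic lesioned libraries. Of the 12 markers of medium spiny neurons 4 were called higher and 6 lower in the acute lesioned striatum, with Drd1a, the D1 dopamine receptor of the direct pathway, at -2.30 ± 0.10 on the log2 scale (SE, adjusted p = 1.36e-08), and 2 higher and 1 lower in the chronic lesioned striatum. Their part in the acute results for Ntrk2, Bdnf and Gdnf was not tested. Of the microglia markers 6 of 12 and of the oligodendrocyte markers 2 of 11 were also called higher in the acute lesioned striatum. Over all top transcripts 8.16% were called higher and 7.16% lower in the acute, and 8.45% and 5.20% in the chronic comparison. For astrocytes, microglia and oligodendrocytes DESeq2 called 4, 7 and 4 markers in the acute comparison, in either direction. With the replicate number as a block 8, 9 and 8 were called in the acute and 2, 2 and 5 in the chronic comparison.

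Glial markers moved as well between the chronic and the acute lesioned striatum, the comparison in which the kinase exons were higher. There edgeR called 11 of 11 oligodendrocyte markers lower in the chronic group, with a median log2 fold change of -0.82, where DESeq2 called 2 and 13.1% of all top transcripts were called lower by edgeR. It called 10 of 12 microglia markers lower (median -0.56) and 5 of 12 astrocyte markers lower and 1 higher (median -0.27). The summed level of the oligodendrocyte markers was 2298 to 3817 CPM in the acute and 1291 to 2276 CPM in the chronic lesioned libraries, and that of the microglia markers 132.7 to 158.3 and 85.7 to 109.6 CPM. No marker of these lists was at 0 in a whole group. The part of these markers in the Ntrk2 results, and in the differences between the lesioned groups given for Ntrk3, Nrtn and Sorcs3, was not tested.

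TrkC, encoded by Ntrk3, likewise has forms with and without a kinase. The top row NM_182809 (chr7:85445576-85722724, minus strand, 3833 bases) ends before the kinase exons. It had 12.9, 13.3 and 15.3 CPM in the acute unlesioned, 11.9, 12.4 and 13.4 in the acute lesioned, 12.1, 11.7 and 12.7 in the chronic unlesioned and 9.58, 9.59 and 11.2 CPM in the chronic lesioned libraries. The chronic lesioned libraries were the lowest and overlapped with no other group. The level was lower there than in the acute lesioned striatum, with a log2 fold change of -0.31 ± 0.09 (SE, adjusted p = 0.0253), a call lost without any of 3 of the 6 libraries (second or the third acute lesioned, first chronic lesioned, adjusted p up to 0.101).

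The lesion effect on this row after chronic L-DOPA was -0.26 ± 0.09 on the log2 scale (SE, adjusted p = 0.0802). With the replicate number as a block it passed the test (-0.26, adjusted p = 0.0173). It also passed in the joint fit of all libraries (-0.26, adjusted p = 0.0446). Of the 13 Ntrk3 rows, which share reads, 5 were called lower in the chronic lesioned than in the chronic unlesioned striatum, beside 12.0% of all transcripts, and 9 were with the replicate block. These 5 were among the 7 rows that reach past the 3′ end of the top row, against 0 of the other 6. AK164887, which is among them, was also called higher in the chronic than in the acute unlesioned striatum (0.63 ± 0.14, SE, adjusted p = 0.0446). Its lesioned mean was 2.514 CPM after acute and 3.015 CPM after chronic L-DOPA. Among the 5 was the full-length row NM_008746, with 6.64, 6.15 and 7.44 CPM in the chronic unlesioned and 4.94, 4.85 and 5.63 CPM in the chronic lesioned libraries (log2 fold change -0.39 ± 0.10, SE, adjusted p = 0.0304), a call lost without the first or the third chronic unlesioned or the first or second chronic lesioned library (adjusted p up to 0.125) and with the cortical marker score as covariate (0.0637). After acute L-DOPA edgeR and DESeq2 each called 0 of the 13 rows, with 2 at an unadjusted p under 0.05 and 2 called with the replicate block.

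Ngfr (top row NM_033217, chr11:95430132-95449012, minus strand) encodes the p75 receptor, which binds neurotrophins and in the basal forebrain marks cholinergic neurons. It had 1.34, 1.21 and 1.54 CPM in the acute unlesioned and 1.30, 0.925 and 1.16 CPM in the acute lesioned libraries. In the chronic groups it had 0.795, 3.99 and 0.938 CPM unlesioned and 0.342, 1.91 and 0.559 CPM lesioned. The second library was the highest on both sides of the chronic groups, and in each chronic pair of the same number the lesioned library was the lower. Without regard to the numbers the chronic lesion effect was -0.98 ± 0.67 on the log2 scale (SE, edgeR adjusted p = 0.402).

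With the replicate number as a block it was -0.99, with an adjusted p of 0.00024 (with the cortical marker score as covariate -1.6, adjusted p = 0.0344), and the difference between the lesion effects was -0.73, with an adjusted p of 0.0148. The same library numbers stood out for the interneuron marker Pvalb, with 2.90, 14.4 and 3.16 CPM in the chronic unlesioned and 1.94, 8.95 and 2.27 CPM in the chronic lesioned libraries. Of the list of 12 interneuron markers, 8 were highest in the second library of the chronic unlesioned group and 2, Pvalb and Calb2, in the second library on both sides. The list's summed level was 94.3, 111.2 and 99.7 CPM in the chronic unlesioned and 109.7, 114.2 and 123.1 CPM in the chronic lesioned libraries, and edgeR called 3 of the 12 higher and 2 lower on the lesioned side. Over all top transcripts edgeR called 8.45% higher and 5.20% lower there. DESeq2 called 7 of the 12 in either direction, and 10 were called with the replicate number as a block. The cholinergic marker Chat was at 7.08, 8.37 and 6.71 CPM and 5.74, 5.67 and 6.47 CPM in these groups. The second chronic unlesioned library is also the one with choroid plexus markers at 489.8 CPM. The part of these markers in the Ngfr values was not tested. Without that library the chronic lesion effect on Ngfr was 0.14 on the log2 scale, and without the second chronic lesioned library it was -2.04, neither called. The level in the lesioned striatum was lower after chronic than after acute L-DOPA once the second chronic lesioned library was left out (-1.32, adjusted p = 0.00111, against -0.25 with it), and that in the unlesioned striatum once the second chronic unlesioned library was left out (-0.65, adjusted p = 0.017, against 0.48 with it).

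**Figure D4:**
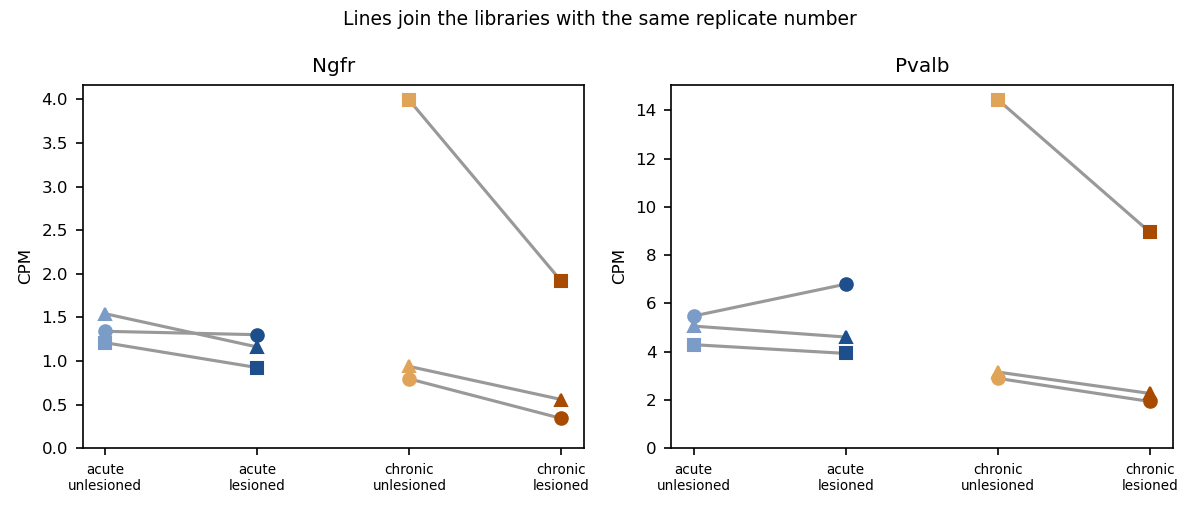
Level of Ngfr (left) and of the interneuron marker Pvalb (right) in CPM on linear axes from 0; points are libraries and lines join the unlesioned and lesioned library of the same replicate number within a treatment. In the chronic groups the second pair is the highest for both genes, at 3.99 and 1.91 CPM for Ngfr.

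Bdnf was the lowest of the members that could be tested. The top row AK033127 (chr2:109533775-109567092, plus strand, 3846 bases in 2 exons) had 101, 17 and 38 counts in the acute unlesioned, 19, 3 and 8 in the acute lesioned, 30, 17 and 96 in the chronic unlesioned and 22, 13 and 17 counts in the chronic lesioned libraries. These were 0.576, 0.123 and 0.284 CPM, 0.144, 0.0347 and 0.0743 CPM, 0.274, 0.142 and 0.648 CPM, and 0.251, 0.119 and 0.156 CPM. The first acute unlesioned and the third chronic unlesioned library were far above the rest, and lesioned and unlesioned libraries overlapped in both treatments.

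The acute lesion effect on Bdnf was -1.88 ± 0.56 on the log2 scale (SE, edgeR adjusted p = 0.0458). The chronic effect was -1.07 ± 0.51 and was not called (adjusted p = 0.217). It was -1.45 without the second chronic unlesioned library (adjusted p = 0.0388) and -0.267 without the third, with adjusted p up to 0.784 over the omissions. The difference between the acute and the chronic effect was 0.80 ± 0.90 (adjusted p = 0.682), at 0.0933 to 1.62 over the 12 omissions. The acute call did not hold when any of 4 of the 6 libraries was left out: the first acute unlesioned (adjusted p = 0.203, log2 fold change -1.16), the third acute unlesioned (0.0873), the second acute lesioned (0.146) or the third acute lesioned library (0.0951). It was also lost with 1 transcript per gene in the fit (adjusted p = 0.0501, log2 fold change -1.88) and in the joint fit of all libraries (0.0891). With the replicate number as a block the call held, at -1.94 (adjusted p = 0.000355).

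Markers of cortical glutamatergic neurons were set beside Bdnf. Slc17a7, named after its values were seen, is the vesicular glutamate transporter of cortical neurons and had 23.4, 10.6 and 10.1 CPM in the acute unlesioned, 12.2, 1.64 and 1.25 in the acute lesioned, 18.1, 3.99 and 32.7 in the chronic unlesioned and 17.8, 1.33 and 1.29 CPM in the chronic lesioned libraries. The 2 libraries highest in Bdnf were also the 2 highest in Slc17a7. Over the list of 12 markers the median log2 fold change was -0.98 in the acute and -1.33 in the chronic comparison, beside 0.02 and -0.01 over all top transcripts tested. In the acute comparison 1 of the 12 was called lower and 1 higher, and in the chronic comparison 0 of 11 tested was called lower and 1 higher, by edgeR and likewise 1 in all by DESeq2, with 3 at an unadjusted p under 0.05. With the replicate number as a block, 11 of the 12 were called in the acute and 7 of the 11 in the chronic comparison. Their summed level was 53.1 to 79.7 CPM in the acute unlesioned, 44.3 to 69.3 in the acute lesioned, 39.7 to 96.1 in the chronic unlesioned and 141.5 to 175.2 CPM in the chronic lesioned libraries, where Nptx1 alone had 116 to 133 CPM. No marker was at 0 in any whole group. With a score of these markers as a covariate, the acute effect on Bdnf was -1.02 and was no longer called (adjusted p = 0.127). The score was 0.54, -0.03 and -0.05 in the acute unlesioned and 0.23, -0.55 and -0.55 in the acute lesioned libraries. It thus varied with the side, and this fit cannot separate the score from the side.

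**Figure D5:**
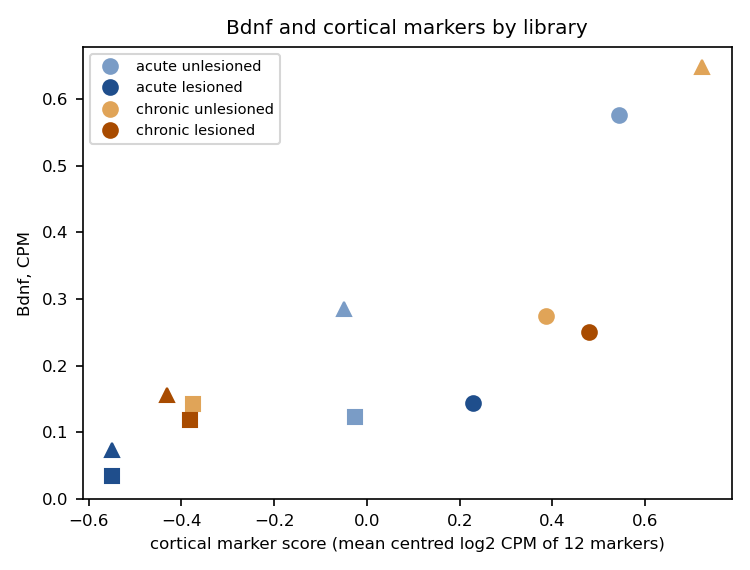
Bdnf level in CPM (linear axis from 0) against the cortical marker score of the same library, which is the mean over 12 markers of log2 CPM centred on its mean over the libraries. Points are the 12 libraries, coloured by group, and the libraries with the highest scores, the third chronic unlesioned (0.72) and first acute unlesioned (0.54), have the highest Bdnf.

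Bdnf is transcribed from several promoters, each with its own first exon joined to the same coding exon. Of the 12 rows 11 gave nearly the same counts, because they reach the end of the same 3′ exon, which starts at 109563539 of chromosome 2. The shared exon held at most 367 of the 367 to 381 counts that each of these 11 rows collected over the 12 libraries. Reads beyond it, which could tell the first exons apart, were 0 to 14 per row. In the acute comparison 11 of the 12 rows were called lower, beside 12.9% of all transcripts called in either direction, with log2 fold changes between -1.99 and -1.69 over the 12 rows, and these are 1 measurement seen 11 times. The exception AK017559, a shorter row, had an adjusted p of 0.111. In each of the other 3 comparisons of groups and in the difference between lesion effects edgeR and DESeq2 called 0 of the 12 rows, with 9 at an unadjusted p under 0.05 in the chronic lesion comparison and 0 in the rest. With all libraries 12.0% of all transcripts were called in the chronic lesion comparison. All 12 rows were called there without the second chronic unlesioned library, the one with choroid plexus markers, and 1 in the comparison of lesioned groups without the first acute lesioned library.

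The row that starts at position 109532593, NM_001048141, had 10 reads beyond the shared exon, 4 in the acute unlesioned, 1 in the acute lesioned, 5 in the chronic unlesioned and 0 in the chronic lesioned group. Such counts cannot show a difference between first exons at this depth. The 250 bases upstream of that start are shown because this is the activity-responsive promoter of the gene, and its element is the 1 match in the 13 windows searched, which belong to Bdnf, Ntf3, Ngfr, Ntrk2 and Gdnf. RefSeq gives the window in build GRCm38.p6, and its sequence was found in mm9 at chr2:109532343-109532592 on the plus strand. The capitals mark the letters TGACGTGA, a variant of the cAMP response element, read here on the opposite strand and starting 38 bases before the transcription start.
Bdnf promoter: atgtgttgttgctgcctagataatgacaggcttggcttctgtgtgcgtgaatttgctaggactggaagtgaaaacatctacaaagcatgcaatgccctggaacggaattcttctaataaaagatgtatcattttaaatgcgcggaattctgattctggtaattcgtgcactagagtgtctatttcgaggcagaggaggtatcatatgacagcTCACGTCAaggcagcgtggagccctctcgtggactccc

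TGACGTGA was found on either strand in 0.35% of the 32851 RefSeq windows of 250 bases and in 1 of these 13. The palindromic element TGACGTCA was in 1.55% of all windows, the AP-1 letters TGAGTCA in 4.46%, and each in 0 of the 13. A match of letters is a description of the window and gives no measure of binding.

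Ntf3 (top row AK132586, chr6:126051433-126114978, minus strand) was at or near the limit of detection. The 12 libraries held 0, 0 and 1 counts in the acute unlesioned, 0, 1 and 4 in the acute lesioned, 3, 1 and 3 in the chronic unlesioned and 0, 6 and 1 counts in the chronic lesioned group. A count of 0 allows up to 3 counts, or 0.0171 to 0.0347 CPM depending on the library. Only the third acute lesioned and the second chronic lesioned library exceeded 3 counts. No difference was detectable at this depth, and all 4 rows failed the filter in each comparison.

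Gdnf (top row NM_010275, chr15:7761011-7787575, plus strand, 3509 bases) was the one member called lower on the lesioned side in both treatments. It had 1.76, 1.80 and 1.26 CPM in the acute unlesioned and 0.908, 1.27 and 1.09 CPM in the acute lesioned libraries, with a slight overlap. After chronic L-DOPA it had 1.44, 1.68 and 1.30 CPM unlesioned and 0.787, 0.851 and 0.944 CPM lesioned, without overlap. The log2 fold changes were -0.57 ± 0.16 (SE, adjusted p = 0.0357) and -0.77 ± 0.15 (adjusted p = 0.00689), a fall to 0.672 and 0.588 of the unlesioned level. The acute call was lost without any of 4 of the 6 libraries (first or second acute unlesioned, first or the third acute lesioned, adjusted p up to 0.124), and no omission ended the chronic call. The difference between the lesion effects was -0.19 ± 0.23 (adjusted p = 0.70), and the treatments did not differ by the test on either side.

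The genes most alike to each member over the 12 libraries were sought among 10400 top transcripts of at least 1 CPM, by the correlation of log2(CPM + 0.5). For Bdnf these were Scn3a (r = 0.907), Mef2c (0.882) and Ipcef1 (0.864), with 0.818 to 0.867 once the group means were subtracted. For Ngfr they were Pvalb (0.966), Steap2 (0.953) and Rab37 (0.949), with 0.96 to 0.985 once the group means were subtracted. For Ntrk2 they were Ddx21 (0.951), Cpeb2 (0.931) and Lonrf3 (0.914), which fell to 0.68, 0.616 and 0.484 without the group means. For Ntrk3 they were Fam171a2 (0.986), Jph4 (0.965) and Acy1 (0.958), with 0.852 to 0.957 without the group means. For Gdnf they were Zfp420 (0.933), Snw1 (0.922) and Ormdl3 (0.922), which fell to 0.755, 0.63 and 0.571. The points share the libraries, their depth and their tissue makeup, so the values describe these 12 libraries only.

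The wider pathway was counted over 61 other genes in 5 lists. After acute L-DOPA 12 of 58 tested were called in the lesioned striatum (20.7%, against 15.3% of all top transcripts), 6 higher and 6 lower. After chronic L-DOPA there were again 6 higher and 6 lower of 58 (20.7% against 13.7%). Between chronic and acute lesioned striatum 11 of 57 were higher and 8 lower (33.3% against 25.6%). In the unlesioned striatum edgeR called 0 of 58, with 15 at an unadjusted p under 0.05 and 2 called by DESeq2, beside 3.07% of all top transcripts. The distance of these shares from those over all top transcripts was not tested, and the counts of the single lists stand against the same shares. The median log2 fold change of the 61-gene list was 0.02 and -0.01 in the acute and chronic lesion comparisons, the same as the 0.02 and -0.01 over all top transcripts. With the replicate number as a block the acute count was 19 and the count for the difference between lesion effects 15, against 2. Without the third acute unlesioned library the acute count was 7, and without the third chronic unlesioned or the third chronic lesioned library the chronic count was 7 or 6. Without the second acute lesioned or first chronic lesioned library, 11 were called between lesioned groups, and without the second chronic unlesioned library 8 were called between unlesioned groups.

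Among the other ligands and receptors of the GDNF family, 2 of 7 tested genes were higher on the lesioned side after acute and 1 after chronic L-DOPA, and none was lower. Ret, the kinase through which GDNF signals, had 0.651, 0.594 and 0.479 CPM in the acute unlesioned and 0.825, 1.17 and 1.06 CPM in the acute lesioned libraries (log2 fold change 0.81 ± 0.17, SE, adjusted p = 0.0086). It had 0.585, 2.09 and 0.445 CPM in the chronic unlesioned and 3.76, 5.62 and 5.64 CPM in the chronic lesioned libraries. These chronic groups did not overlap, and Ret was 4.88-fold higher (log2 fold change 2.29 ± 0.44, SE, adjusted p = 0.00731). The highest chronic unlesioned value came from the second library, the one with choroid plexus markers, and without it the effect was 3.30 (adjusted p = 2.55e-06). The acute call was lost in the joint fit of all libraries (adjusted p = 0.283). Between the lesioned groups Ret was higher after chronic L-DOPA by 2.32 ± 0.18 (SE, adjusted p = 1.42e-05). While Gdnf was lower on the lesioned side in both treatments, its signalling receptor was therefore higher in both. Nrtn, the related ligand neurturin, was higher in the chronic than in the acute lesioned striatum by 1.53 ± 0.17 on the log2 scale (SE, adjusted p = 0.000176).

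Of the 7 enzymes that cut precursor neurotrophins, 2 were higher and 1 lower after acute, and 3 higher after chronic L-DOPA. Pcsk1, a prohormone convertase of secretory granules, had 3.02, 2.86 and 2.25 CPM in the acute unlesioned and 6.13, 6.21 and 4.34 CPM in the acute lesioned libraries (log2 fold change 1.04 ± 0.14, SE, adjusted p = 0.000537). It was also higher after chronic L-DOPA, by 1.24 ± 0.15 (adjusted p = 0.000452). Plat, the tissue plasminogen activator that starts the cleavage of proBDNF by plasmin, was higher in the lesioned striatum by 0.90 ± 0.10 after acute (adjusted p = 0.000148) and by 0.88 ± 0.10 after chronic L-DOPA (adjusted p = 0.000257). For Furin, a convertase of the Golgi, the lesion effects differed by 0.71 ± 0.12 (adjusted p = 0.00366), with 8.39 to 10.1 CPM in the chronic lesioned and 5.10 to 6.26 CPM in all other libraries.

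Among the coreceptors and sorting receptors, Rtn4r, the Nogo receptor that pairs with p75, was lower in the chronic lesioned than in the chronic unlesioned striatum, with a log2 fold change of -1.31 ± 0.27 (SE, adjusted p = 0.0115, and 0.0637 without the third chronic lesioned library). Sorcs3, a member of the sortilin family, had 6.56, 5.34 and 6.32 CPM in the acute lesioned and 3.23, 3.22 and 2.98 CPM in the chronic lesioned libraries, a fall of 0.95 ± 0.10 (adjusted p = 0.000144). Its lesion effects differed as well (log2 difference -1.0 ± 0.17, adjusted p = 0.00228). Sorcs3 and Furin were the 2 of 58 pathway genes called for that difference, beside 5.10% of all top transcripts, against 10 without the second chronic lesioned library. Of the 26 Trk adaptors and effectors 1 was higher and 3 lower after either treatment, and of the 10 p75 adaptors edgeR and DESeq2 called 0 after acute L-DOPA, with 4 at an unadjusted p under 0.05, and edgeR 1 in each direction after chronic L-DOPA.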

How the data were processed

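TruSeq libraries for mRNA were made by the authors from total striatal RNA, sequenced (Genome Analyzer II), mapped to mm9 on a Genomatix Mining Station and counted per transcript. The deposited values used here are raw read counts per transcript, and a read counts for every transcript it overlaps. Strand and the treatment of reads with several matches are not given in the sources used here, and several Ntrk2, Ntrk3 and Ntf3 introns hold rows of other symbols. A further 48 per-sample columns and the authors' comparison tables (fold changes and p-values, by DESeq per the labels) were not used. Rows without a gene symbol (296, with 0.0485% of counts) were left out.

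Counts were tested with edgeR 4.0.16 (filterByExpr by group, TMM, glmQLFit and glmQLFTest) on the 6 libraries of 2 groups or, for the difference between lesion effects, on all 12, without covariates. P-values were adjusted by Benjamini-Hochberg over all transcripts tested. Each SE is the log2 fold change divided by the square root of the F statistic. CPM use TMM library sizes. Alternatives were DESeq2 1.42.0, its size factors, no filter, 1 transcript per gene, a joint fit of the 12 libraries, a block for the replicate number, a cortical marker covariate and omission of each library. On simulated counts the fits recovered, of 200 changed transcripts, 200 (acute, 129674 simulated), 197 (chronic, 127063), 198 (lesioned, 127463), 198 (unlesioned, 129187) and 187 (difference, 130867), with 9, 14, 9, 10 and 9 false calls. The simulation changed only transcripts of higher mean count, by at least 2-fold, with a common dispersion and no shared reads. It therefore does not measure the power for smaller changes or for low counts.

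Libraries of the same number deviated together from their group means in the lesion comparisons, with correlations across 19251 genes of 0.402, 0.318 and 0.244 (acute) and 0.442, 0.506 and 0.148 (chronic), all above 0.1 (for the third chronic number a library of another number reached 0.148 as well), so the numbers were taken to pair them, as the within-mouse design of the study describes. In the other comparisons they were not all above 0.1. The main tests of the lesion effects did not use the pairing by number, which entered only the fits with the replicate block. No 2 libraries of a group were copies (chi-square per degree of freedom of 5.41 or more). Nothing in the labels beyond the mouse count says how the libraries of a group were separated, so p-values measure the spread between these libraries.

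Named were the members by top transcript, Bdnf and Ntrk2 per row, the 3 pathway genes with the largest called change per comparison and the 3 genes most alike to a member. The members and lists were chosen with earlier results of these data known. Single markers (Slc17a7, Nptx1, Pvalb, Calb2, Chat, Drd1a) and the Ntrk3 and Ntrk2 rows singled out in the text were chosen after their values were seen.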

Additional observations from a re-analysis of the deposited data

Results flagged for a closer look

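For 3 Ntrk2 rows and 2 pathway genes the lesion effect differed between chronic and acute L-DOPA by edgeR's test of the difference itself. The T1 exon differed by -0.49 on the log2 scale, the kinase exons by 0.71 and the 3′ end of the full-length form by 0.63. Sorcs3 differed by -1.0 and Furin by 0.71, and no omission of a library ended either call. The values per library and the effect of leaving out each library stand with the account of the Ntrk2 rows above. Groups of 3 libraries were not tested for single outlying values.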

How the results depend on the processing

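Low counts limit Bdnf, Ntf3 and the reads that tell Bdnf first exons apart, and the shared reads of transcript rows limit every count of rows. Of 270 counts under an alternative, 212 stayed within 1.5 times the reported count. Where a value moved, the cause was not tested unless libraries were left out, which also lowers the sample number.

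By top transcript, the replicate block gave 3 members called after chronic L-DOPA and 2 for the difference between lesion effects. The cortical marker score and the joint fit of all libraries each gave 2 after chronic L-DOPA, and DESeq2 gave 1 in the unlesioned striatum and 1 for the difference. Bdnf rows called in the acute comparison were 0 with the cortical marker score and 0 in the joint fit. Ntrk2 rows called in the unlesioned striatum were 3 with DESeq2, 2 without the filter and 0 in the joint fit, and for the difference 5 with DESeq2 and 7 with the replicate block. Pathway genes called in the acute comparison were 19 with the block and 5 in the joint fit, in the unlesioned striatum 2 with DESeq2 and 1 without the filter, and for the difference 7 with DESeq2, 15 with the block and 6 with the cortical score. In the comparisons of treatments the numbers did not pair all libraries (same-number correlations from -0.15 to 0.117), and the block gave 1 member in the lesioned and 0 in the unlesioned striatum. Beyond the calls given in the account of Ngfr, Ntrk3 and the top row of Ntrk2, the block changed no call of a member by top transcript or of the 3 form-specific Ntrk2 rows.

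These uncalled log2 fold changes changed sign: the kinase exons in the acute comparison with the cortical score (-0.0273), the T1 exon in the chronic comparison with DESeq2's size factors (0.00432), DESeq2 (0.0043) and the cortical score (0.0306), and Bdnf in the unlesioned striatum with the cortical score (-0.221).

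Leaving out each library gave these ranges. Members called were 1 to 2 after acute, 1 to 2 after chronic, 0 to 2 in the lesioned and 0 to 2 in the unlesioned striatum. Bdnf rows called were 0 to 12 after acute, 0 to 12 after chronic and 0 to 1 in the lesioned striatum, and Ntrk2 rows 1 to 4 in the lesioned, 0 to 3 in the unlesioned striatum and 0 to 3 for the difference. Pathway genes called were 7 to 13 after acute, 6 to 14 after chronic, 11 to 20 in the lesioned, 0 to 8 in the unlesioned striatum and 2 to 10 for the difference. Uncalled log2 fold changes that crossed 0 were the kinase exons after acute L-DOPA (-0.041 to 0.0962) and in the unlesioned striatum (-0.0995 to 0.0585), the T1 exon after chronic L-DOPA (-0.0589 to 0.122), Bdnf in the unlesioned striatum (-0.694 to 0.846), and Ngfr after chronic L-DOPA (-2.04 to 0.139), in the lesioned (-1.32 to 0.122) and unlesioned striatum (-0.645 to 0.836) and for the difference (-1.79 to 0.395).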
